A study of Mus musculus with 2 samples.

Results

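The nuclear-encoded genes of the mitochondrial respiratory chain and ATP synthase were taken as the protein-coding genes of GENCODE M21 whose symbol begins with Nduf, Uqcr, Cox4i, Cox5, Cox6, Cox7, Cox8 or Atp5, together with Sdha, Sdhb, Sdhc and Sdhd. This rule gave 94 gene records of 21938 protein-coding genes, with 93 symbols because Atp5o has 2 records. The symbol rule also takes in factors that assemble complex I (the Ndufaf genes), Cox7a2l, a factor of respiratory supercomplexes, and Atp5s, a factor related to ATP synthase. Of the records, 44 belonged to complex I, 4 to complex II, 8 to complex III, 20 to complex IV and 18 to complex V. Ndufa4 and Ndufa4l2 were counted with complex IV, where the Ndufa4 protein is a subunit.

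The tissue was embryonic facial prominence, the outgrowths that form the face, pooled from male and female B6NCrl mouse embryos at day 14.5 of development. DNase-seq, which maps open chromatin by cutting accessible DNA in nuclei with DNase I, was performed on 2 biological replicates that share a donor record. These replicates form a single untreated group, so values are described and no test between groups could be made. Each replicate came with a list of peaks of 150 bp, each with a score given by the authors, in mm10 coordinates.

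The respiratory chain passes electrons from NADH (complex I) and succinate (complex II) through complex III to oxygen at complex IV, and the proton gradient built on the way drives ATP synthesis by complex V. Most subunits are encoded in the nucleus, made in nearly every cell and imported into mitochondria, while several complex IV subunits have a second gene used in heart and skeletal muscle, in testis, or in lung and under low oxygen. Promoters of the widely used genes are known to be bound by factors such as NRF1, GABP (an ETS factor) and YY1, and in tissues with high energy demand by the estrogen-related receptors (ERR).

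Nearly all of these genes had open promoters. A promoter site counted as shared when overlapping peaks of both lists reached into 500 bp around an annotated start site. Such a site was found at 88 of the 94 records (93.6%), against 67.4% of all protein-coding genes. Replicate 1 alone had a promoter peak at 91 records (all coding genes, 70.9%) and replicate 2 at 89 (68.7%).

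Strength was described by the highest score in the window, which has no stated unit or normalization and is therefore read within a list. The members with a peak had a median score of 130 in replicate 1 (range 29 to 149) and 119 in replicate 2 (range 19 to 139). Over all coding genes with a promoter peak the medians were 120 and 110. The promoter peak lay in the top decile of both lists, by score, at 84 of 94 members, against 49.1% of coding genes. Over the 88 shared sites, the score was higher in replicate 1 at 81, higher in replicate 2 at 6 and equal at 1. Over the 14795 coding genes with a shared site these counts were 13595, 982 and 218, so this was not particular to the members. The median score of all peaks was 50 in replicate 1 and 37 in replicate 2. The replicates ranked the members similarly (Spearman's rho 0.84, Pearson's r 0.93 across genes, as a description, since genes are not replicates). Over all coding genes with a shared site rho was 0.94 and r 0.95.

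**Figure D1:**
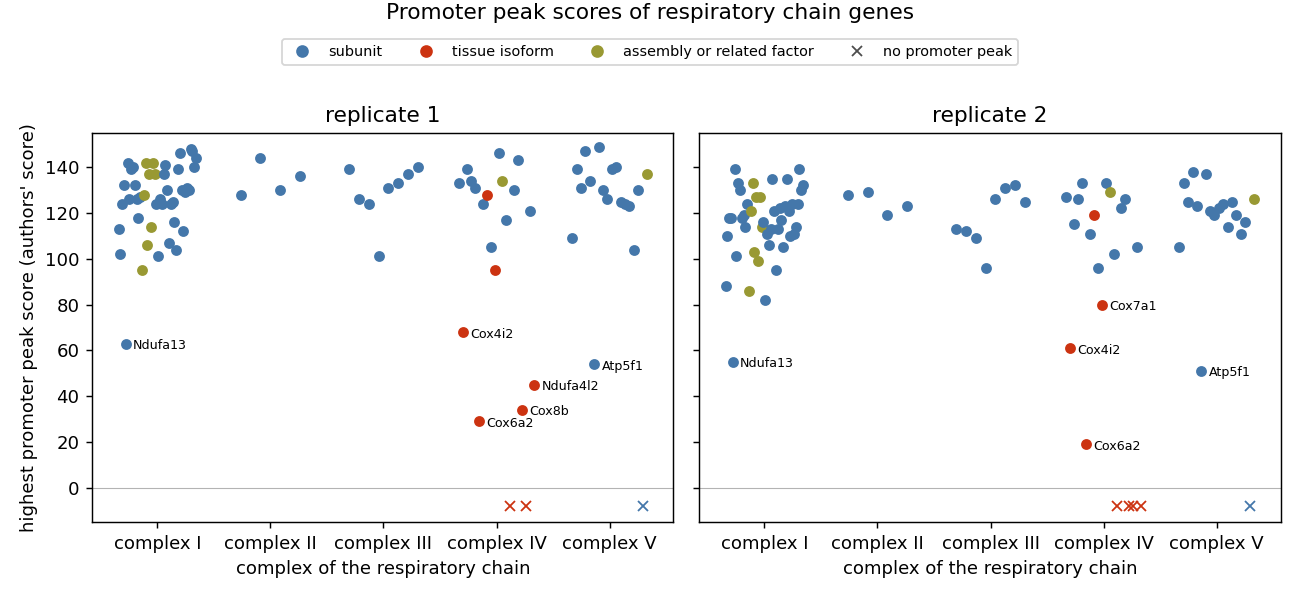
Highest promoter peak score (authors' score) of each respiratory chain gene in replicate 1 and replicate 2, by complex, where each point is a gene and crosses below 0 mark genes without a promoter peak. Most points lie above 100, and the low points are mainly tissue isoforms of complex IV, with Ndufa13 and Atp5f1 below 65 in both replicates.

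Base composition moved with this result. A promoter was called CpG-rich when the 1001 bp around its start site had an observed over expected CpG ratio of at least 0.6 and at least 50% G and C. Of the members 70 of 94 (74.5%) were CpG-rich, against 45.7% of coding genes. Among CpG-rich coding genes 97.2% had a shared promoter site, close to the 69 of 70 CpG-rich members. Among the other coding genes 42.4% had one, against 19 of 24 members. CpG-rich coding genes with a peak had median scores of 129 and 119, near those of the members, and 83.3% were in the top decile of both lists, against 69 of the 70 CpG-rich members (98.6%). The part of CpG content in the members' openness was not tested.

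**Figure D2:**
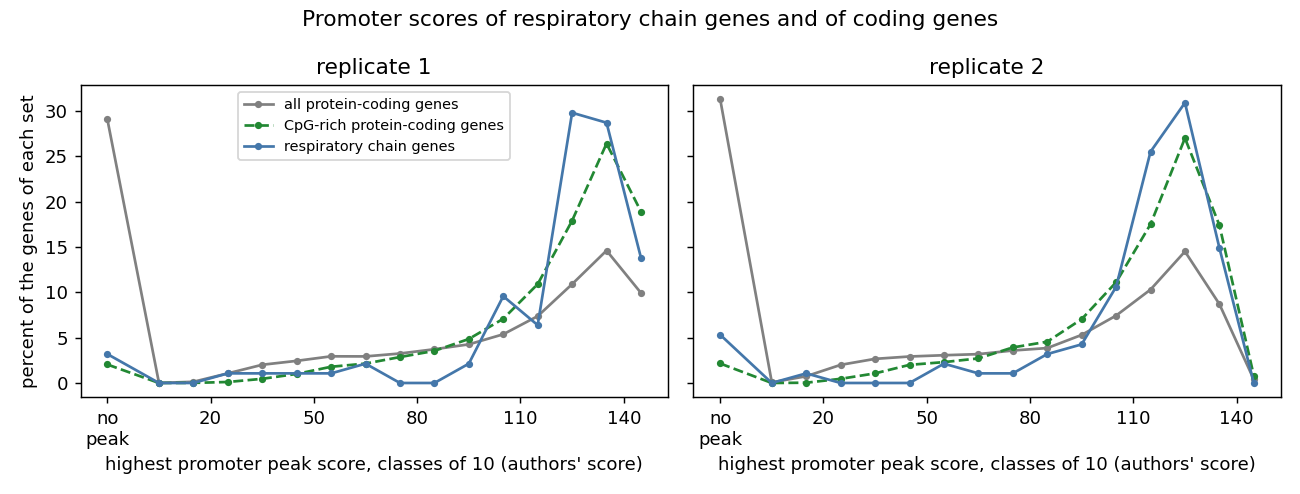
Percent of genes (vertical axis) in classes of 10 of the highest promoter peak score (horizontal axis) for respiratory chain genes, all protein-coding genes and CpG-rich protein-coding genes, in each replicate. Members and CpG-rich genes both lie mostly in the high classes, though their shares differ by class. Few members are in the "no peak" class (3.19% in replicate 1 and 5.32% in replicate 2, against 2.04% and 2.15% of CpG-rich genes).

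Complex I, the NADH dehydrogenase, had a shared promoter site at 43 of its 44 genes, with median scores of 128 and 118. Its 7 core subunits encoded in the nucleus, which carry electrons from NADH towards ubiquinone, all had one, with median scores of 140 and 124. Ndufv1, the subunit that binds NADH, scored 147 in replicate 1 and 139 in replicate 2, the highest in the complex by mean percentile over both lists, although Ndufs8 was higher in replicate 1 and Ndufa2 equal in replicate 2. Its peak ranked at percentile 99.9 of both lists.

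Among other core genes, which bind iron-sulphur clusters or support them, Ndufs8 scored 148 and 124, Ndufv2 140 and 130, and Ndufs1 139 and 123. Ndufs3 scored 130 and 121 and Ndufs7 130 and 114. The core subunits thus spanned 130 to 148 in replicate 1 and 114 to 139 in replicate 2, without a low member. The 29 accessory genes had medians of 126 and 116, and the 8 assembly factors 132 and 118, so the ranges of the roles overlapped. Ndufa2, an accessory subunit, reached 142 and 139.

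The lowest shared sites of complex I by rank were at Ndufb11 (87 and 82, beside a stronger peak of 101 in replicate 1), Ndufaf1 (95 and 86) and Ndufa1 (113 and 88). Ndufb11 and Ndufa1 are on the X chromosome, as is Cox7b of complex IV (117 and 102). All 3 still had a shared site.

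Ndufa13 was the single complex I gene without a shared promoter peak. Near its start at chr8:69902558, replicate 1 had a peak of score 63 centred 7.5 bp downstream and replicate 2 one of score 55 centred 252 bp upstream, and these did not overlap. Stronger peaks of both lists flanked the window, at 848 and 868 bp downstream (scores 130 and 116) and upstream, at −752 and −732 bp (136 and 122). Hotspots, the broader regions called open by the authors, reached into the window in both replicates and overlapped each other, with widths of 1392 and 894 bp.

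Complex II, succinate dehydrogenase, also serves the citric acid cycle, and all 4 of its genes had a shared promoter site. Sdha, the flavoprotein with the catalytic site, scored 128 in both replicates. Sdhb, the iron-sulphur subunit, scored 144 and 129. Among the membrane anchors, Sdhd scored 136 and 123, and Sdhc 130 and 119. The 4 genes lay close together within each list.

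Complex III, the cytochrome bc1 complex, had a shared site at all 8 genes, with medians of 132 and 119. Uqcrfs1, the Rieske iron-sulphur protein, scored 133 and 131, and the core protein Uqcrc2 131 and 126. The other core protein, Uqcrc1, was the lowest of the complex at 101 and 96. Of the accessory subunits, Uqcrh scored 137 and 132 and Uqcrq 140 and 125, while Uqcr11 (126 and 112) and Uqcrb (124 and 109) ranked low.

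Complex IV, cytochrome c oxidase, had the lowest share, with 16 of 20 genes. All 11 ubiquitous subunits had a shared site, with medians of 131 and 122 and ranges of 105 to 146 and 96 to 133. Cox7a2l scored 134 and 129. The 4 genes without a shared site, Cox7b2, Cox8b, Cox8c and Ndufa4l2, were all tissue isoforms.

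Complex V, the ATP synthase, had a shared site at 17 of 18 records. In the catalytic F1 part, Atp5b, the subunit that makes ATP, scored 139 and 133, and Atp5d, in the central stalk, 147 and 138. Atp5a1, the other subunit of the catalytic ring, was the lowest of F1 at 109 and 105, with Atp5c1 at 131 and 125 and Atp5e at 134 and 123. Atp5g1, which encodes the c-ring protein that turns as protons pass, had the highest score of all members in replicate 1, at 149, with 137 in replicate 2.

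At Atp5f1, a stalk subunit, the value depended on the annotation. Its annotated start in the basic set, at chr3:105960099, had a shared peak of only 54 and 51. Peaks of 128 and 134 were centred 708 and 728 bp downstream, beside the start of Wdr77. In the comprehensive annotation, chosen as a check after the data were seen, Atp5f1 also has a start there and its scores are 128 and 134. Atp5mpl, a small membrane subunit, scored 104 and 111. The record without a peak was the longer Atp5o record (ENSMUSG00000116933.1, chr16:91684398-91926982), while the other Atp5o record (ENSMUSG00000022956.11) scored 130 and 116.

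The tissue isoforms of complex IV differed from their ubiquitous partners. In 7 of 8 pairs the ubiquitous gene had the higher score in both replicates, with a gene without a peak counted as lower. Of the 8 tissue isoforms 4 had a shared site, against 84 of the other 86 records. In the top decile of both lists were 1 of the 8 and 83 of the 86. Over all coding genes the shares were 67.4% and 49.1%. None of the 8 isoforms was CpG-rich, and 42.4% of coding genes outside that class had a shared site, near the 4 of 8. The count of isoforms with a site was 3 when only peaks at or above their list's median score were used and 6 in replicate 1 alone. The pairs were set by the genes' names, and the shares are given without a test.

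The lowest promoter scores of replicate 1 were at heart and muscle isoforms. Cox6a2 had the lowest promoter score of all members, at 29 in replicate 1 and 19 in replicate 2 (percentiles 8.14 and 7.19 of the lists), and a hotspot with a deposited −log10 q-value of 1.74 and 1.61. Its partner Cox6a1 scored 131 and 133. Cox8b had a peak of 34 in replicate 1 and none in replicate 2, against 143 and 126 for Cox8a. Cox7a1 stood higher, at 95 and 80, below the 146 and 133 of Cox7a2. Cox6a2, Cox8b and Cox7a1 thus covered a wide range, from near the bottom of the lists to about the top decile.

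The isoforms of lung or low oxygen were also lower. Cox4i2 scored 68 and 61, against 133 and 127 for Cox4i1. Ndufa4l2 had a peak of 45 in replicate 1 and none in replicate 2, against 121 and 105 for Ndufa4. Of the testis isoforms, Cox7b2 and Cox8c had no promoter peak in either list, while Cox7b scored 117 and 102. Cox6b2 was the exception, at 128 and 119, above Cox6b1 at 124 and 111. A gene without a called peak is not shown to be closed, and in a whole tissue few cells with an open promoter cannot be told apart from weak opening in many cells.

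**Figure D3:**
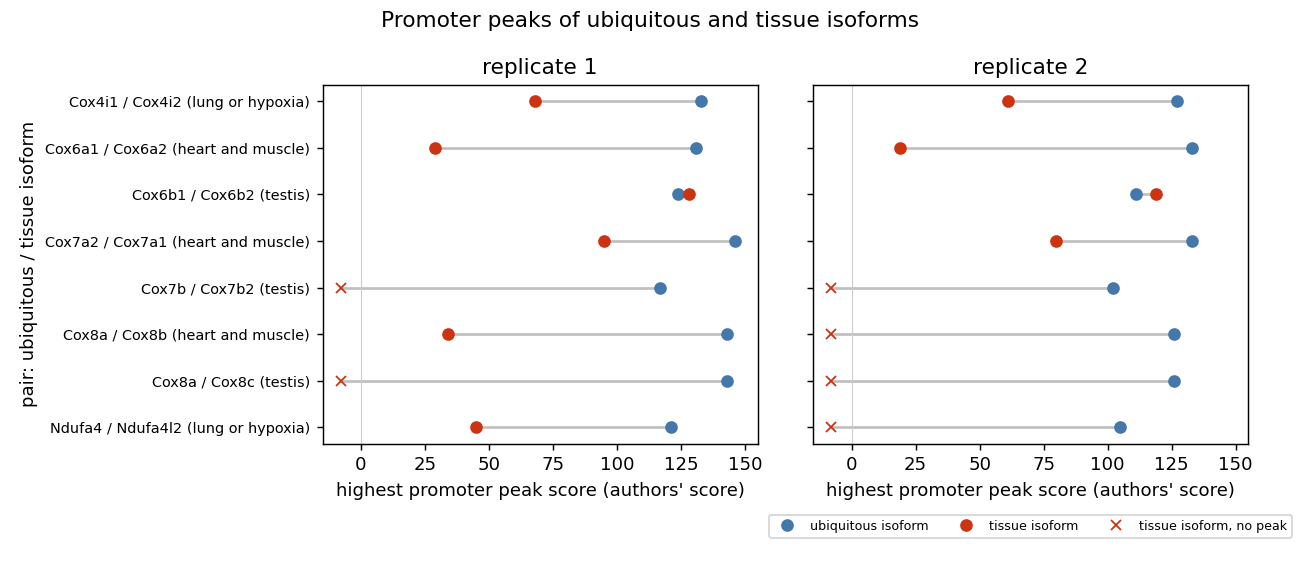
Highest promoter peak score (authors' score, horizontal axis) of the ubiquitous gene and of its tissue isoform in 8 pairs, in each replicate, where crosses left of 0 mark isoforms without a promoter peak. The ubiquitous gene lies to the right in every pair but Cox6b1 and Cox6b2.

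CpG content differed along the same pairs. The observed over expected CpG ratio was 0.96 at Cox6a1 and 0.26 at Cox6a2, 0.80 at Cox7a2 and 0.28 at Cox7a1, and 0.69 at Cox8a and 0.25 at Cox8b. It was 1.00 at Cox4i1 and 0.38 at Cox4i2, and 0.73 at Ndufa4 and 0.19 at Ndufa4l2. Cox6b2, with its strong promoter peak, had 0.44 against 0.78 at Cox6b1. Cox7b and Cox7b2 had 0.48 and 0.47, and Cox8c, without a peak, had 0.46 against 0.69 at Cox8a. All 8 tissue isoforms thus had the lower CpG ratio of their pair, by very little at Cox7b2, and all but Cox6b2 also had the lower score or no peak. CpG content and tissue use cannot be told apart over so few genes.

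Markers of muscle, heart and germ cells, and of facial mesenchyme, epithelium and pericytes, were read beside the isoforms. Of 8 skeletal muscle markers 5 had a shared promoter site, among them the muscle regulators Myod1 (85 and 54) and Myog (97 and 59), while Acta1 (49) and Ckm (46) had a peak in replicate 1 only and Tnnt3 had none. Of 7 cardiomyocyte markers 2 had a shared site, Nkx2-5 (66 and 32) and Tnnt2 (88 and 48), and Myh6, Tnni3, Nppa, Tbx5 and Myl7 had none. Of 6 germ cell and testis markers only Dazl (127 and 115) had one. All 8 facial mesenchyme markers had a shared site, with median scores of 127 and 103. So did all 5 epithelial markers (71 and 62) and all 5 pericyte markers (101 and 79). Over all coding genes 67.4% had a shared site, and those with a promoter peak had medians of 120 and 110. The 5 of 8 muscle markers were near that share, and the epithelial and pericyte medians lay below those medians in both replicates. The part of these cell types in the isoforms' scores was not tested.

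The promoter DNA under these peaks is printed for 2 of the 8 pairs, as examples. The sequences are the parts of replicate 1's peak that overlap no annotated exon, read from GRCm38 (mm10) in the direction of the gene, and all 4 genes lie on the minus strand. Cox6a1 (chr5:115348996-115349129) and Cox6a2 (chr7:128206388-128206465) are shown first, then Cox8a (chr19:7217617-7217765) and Cox8b (chr7:140900447-140900505). Capitals mark an NRF1 string in Cox6a1, 2 overlapping MEF2 strings in Cox6a2 and an E-box in Cox8b, strings that are described after the sequences. No string is marked in Cox8a. Other searched strings are left in lower case, namely Sp and NFY strings in Cox6a1 and the CREB short form in Cox8a.
Cox6a1: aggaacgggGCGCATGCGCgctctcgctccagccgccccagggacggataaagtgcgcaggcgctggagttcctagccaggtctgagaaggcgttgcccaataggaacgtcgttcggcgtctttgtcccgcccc
Cox6a2: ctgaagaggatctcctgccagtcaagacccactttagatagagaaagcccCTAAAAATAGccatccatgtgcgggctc
Cox8a: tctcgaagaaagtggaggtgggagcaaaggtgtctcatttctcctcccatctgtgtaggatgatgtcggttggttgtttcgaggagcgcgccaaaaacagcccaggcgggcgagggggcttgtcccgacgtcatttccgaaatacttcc
Cox8b: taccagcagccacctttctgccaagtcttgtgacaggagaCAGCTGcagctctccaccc

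Cox6a2 was the only member whose shared promoter peak held the MEF2 strings CTATTTTTA and CTAAAAATA, which overlap there on opposite strands and are bound by a family of muscle regulators. They occurred in 0.139% and 0.153% of the peaks of all coding genes. Its peak was nevertheless the weakest of the members. The E-box CAGCTG, a form bound by muscle regulators, occurred in 4 of 88 member peaks (all coding genes, 9.76%), namely at Cox4i1, Ndufb10, Ndufb11 and Ndufs5. Cox8b was outside this count because its peak was called in replicate 1 only. The shared peak of the muscle isoform Cox7a1 held neither a MEF2 string nor this E-box.

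Strings of the factors known from respiratory genes were searched on both strands of the strongest shared promoter peak, for 88 member peaks and 13705 peaks of all coding genes. The full NRF1 palindrome was in 5 member peaks, against 1.3% over all genes. Its shorter form GCATGCGC, to which the palindrome adds GC at the 5′ end, was in 12, or 13.6% against 3.82%. One of these 5, Cox6a1, is a complex IV gene, 3 are complex I genes and 1, Atp5k, a membrane subunit, is in complex V. The windows of 30 bases are printed on the plus strand of mm10 with the string in capitals, for Atp5k (chr5:108434430-108434459), Ndufa11 (chr17:56717692-56717721), and the assembly factors Ndufaf4 (chr4:24897960-24897989) and Ndufaf5 (chr2:140170652-140170681).
Atp5k: agccagaaagGCGCATGCGCcgcagtgaaa
Ndufa11: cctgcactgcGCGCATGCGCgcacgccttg
Ndufaf4: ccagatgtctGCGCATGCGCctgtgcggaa
Ndufaf5: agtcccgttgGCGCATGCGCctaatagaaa

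These palindromes were centred 3.5 bp downstream of the start at Atp5k, at −60.5 bp, that is upstream, at Ndufa11, at −108 bp at Ndufaf4 and at 17.5 bp at Ndufaf5. The promoters that held them scored 124 and 125, 124 and 118, 106 and 103, and 137 and 127. Their scores lay both above and below the members' medians.

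The YY1 string AAGATGG was in 11 member peaks (12.5% against 3.08%). It lay over an annotated start codon, on the coding strand, in 7 of the 11, against 26.3% of the 422 such peaks of all genes. In 6 of these the start codon was the member's own, at Ndufa3, Ndufa9, Ndufb8, Ndufc1, Ndufs4 and Sdhc. At Uqcrh it was that of Lrrc41, which starts on the opposite strand. A longer form, with CGG after AAGATGG, was in 4 member peaks (4.55% against 0.795%). Windows of 29 bases are printed in the direction of the gene with the string in capitals, where the ATG inside it is the start codon, for Ndufa3 (chr7:3617384-3617412, plus strand), Ndufa9 (chr6:126849098-126849126, minus), Ndufb8 (chr19:44555387-44555415, minus), Ndufc1 (chr3:51408916-51408944, minus), Ndufs4 (chr13:114388042-114388070, minus) and Sdhc (chr1:171150564-171150592, minus).
Ndufa3: ccgccaagaacAAGATGGccgggagtaag
Ndufa9: cattgtgggagAAGATGGcggccgccgtc
Ndufb8: cggagaaggtgAAGATGGctgccgcccgg
Ndufc1: gcctgcggaacAAGATGGcgccgtccgta
Ndufs4: ttgcctacaggAAGATGGcggcggtctca
Sdhc: ggccggaactcAAGATGGctgcgttcttg

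The ERR string AAGGTCA was in 6 member peaks (6.82% against 0.766%), of which 4 were in complex V, at Atp5a1, Atp5g3, Atp5k and Atp5mpl, 1 in complex I (Ndufb4) and 1 in complex III (Uqcrq). Windows of 29 bases are printed on the strand that reads AAGGTCA, for Atp5g3 (chr2:73911361-73911389, plus strand, opposite to the gene), Atp5k (chr5:108434359-108434387, minus), Atp5mpl (chr12:111966964-111966992, plus, opposite to the gene) and Ndufb4 (chr16:37654406-37654434, minus).
Atp5g3: ggaagacgctcAAGGTCActttgtaacaa
Atp5k: cttccggcgcgAAGGTCAcggacaaaatg
Atp5mpl: acagaatgggaAAGGTCAcagagcacgca
Ndufb4: tcctgagcctgAAGGTCAgactcgagagg

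The ETS string CCGGAAG, the core bound by GABP, was in 16 member peaks (18.2% against 12.1%), including Sdhb and Sdhd of complex II and Ndufs1 and Ndufs3 of complex I. At least 1 of the NRF1 short form, ETS, YY1 and ERR strings was present in 38 of 88 member peaks (43.2%), against 18.4% of all. The Sp string GGGCGG was less frequent in members, with 31 peaks (35.2% against 55.7%). NFY (CCAAT) was in 23 (26.1% against 28.6%), the CREB short form TGACG in 22 (25% against 21.8%), the full CREB string TGACGTCA in 3 (3.41% against 2.81%), the TATA string TATAAA in 3 (3.41% against 2.57%) and a string of the CTCF motif in 2 (2.27% against 1.65%).

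Restricting both sets to CpG-rich genes, 69 member peaks and 8882 peaks in all, left the differences for the NRF1 short form (15.9% against 4.76%), YY1 (13% against 3.39%) and ERR (8.7% against 0.664%). That for ETS was small (18.8% against 14.5%), and Sp stayed lower in members (42% against 63.9%). A string match is a description of the sequence and shows no binding.

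**Figure D4:**
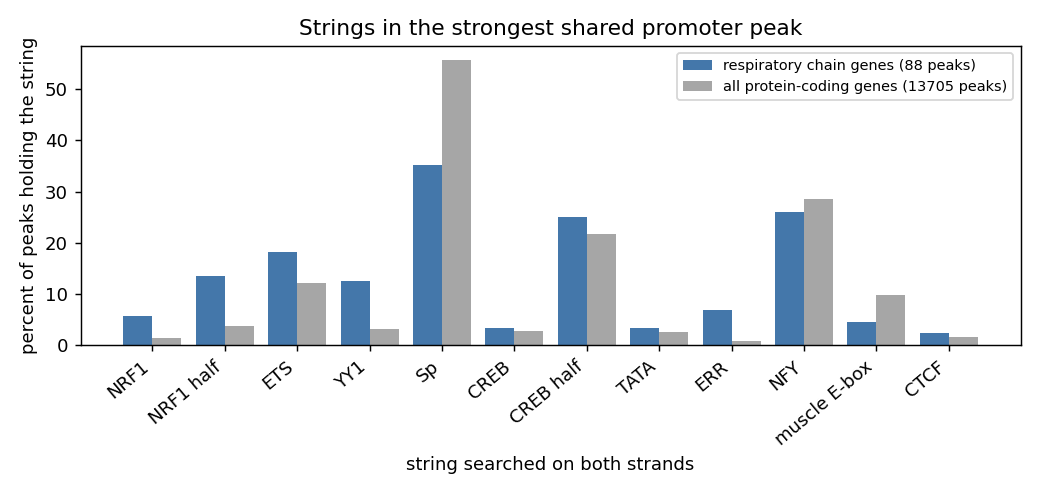
Percent of strongest shared promoter peaks (vertical axis) that hold each string on either strand, for 88 peaks of respiratory chain genes and 13705 peaks of all protein-coding genes. The bars for NRF1, its short form, YY1 and ERR are higher in the members, and the bar for Sp is lower.

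The peaks sat close to the annotated starts. Of the 88 strongest shared peaks 74 (84.1%) were centred within 100 bp of a start site of the gene, against 67.2% over all coding genes, and the median distance was 47.5 bp against 62.5 bp. They were centred upstream of the start in 66 and downstream in 22, and over all coding genes 73.6% were upstream, about the same share. In 12 (13.6% against 10.6%) the start of another gene was nearer. At Atp5j, a stalk subunit, the strongest peak in the window (140 and 124) was centred 512 bp from its start and 65.5 bp from that of Gabpa, which encodes the ETS subunit of GABP. These distances hold for the basic annotation: in the comprehensive set the same peak lies 14.5 bp from a start of Atp5j itself.

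Many members share their promoter with a gene on the other strand. An opposite-strand coding gene started within 1000 bp upstream at 24 of 94 members (25.5%), against 8.14% of coding genes. Among CpG-rich genes the shares were 31.4% of members and 14.8% of coding genes. At the 24 members the distance was 3 to 336 bp, with a median of 86 bp. Complex I had 14 of these, complexes II, III and V had 3 each, and complex IV had 1. All 24 had a shared promoter site, as did 95.2% of the coding genes with such a neighbour.

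Examples in complex I are Ndufs1 with Eef1b2, a translation elongation factor, 3 bp apart, Ndufa7 with the ribosomal protein gene Rps28, 10 bp apart, and the assembly factor Ndufaf5 with Esf1, 85 bp apart. In complex II, Sdha lay 29 bp from Ccdc127 and Sdhd 98 bp from Timm8b, which encodes a protein of mitochondrial import. The complex IV gene was Cox4i1, 101 bp from Emc8. Where one peak covers both starts, its score cannot be given to one gene. The part of the neighbours in the members' scores was not tested.

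Distal sites were counted next. Shared distal sites, over 1000 bp from every annotated start and within 20 kb of a member's start, numbered 242, and 82 of 94 members (87.2%) had at least 1, against 76.2% of coding genes. Among CpG-rich genes the shares were close, with 62 of 70 members against 87.9% of coding genes. The median was 2 per gene for members and for all coding genes. Their median scores were 64 and 45.5, against 60 and 38 for all 140271 shared distal sites. Of the 242 sites 112 lay in introns, 26 in exons and 104 between genes, and 132 (54.5%) were nearer to that member's start than to any other coding gene's. A site near a start was not shown to act on that gene.

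The most distal sites were found at Atp5d, with 14, none of them nearest to Atp5d itself. Ndufa4l2 had 12 and Cox4i2 9. They were followed by Atp5h, a stalk subunit, with 7, and by members with 6 each, among them Atp5b, Ndufs3 and the longer Atp5o record. Atp5mpl, Cox4i1, Ndufa5 and the shorter Atp5o record were among the 6 members with 5. The sites of the shorter Atp5o record were all counted for the longer one as well. The 12 members without a distal site were Atp5f1, Atp5j2, Ndufa1, Ndufa4, Ndufa9, Ndufaf1, Ndufb11, Ndufb5, Ndufb7, Ndufb8, Sdha and Uqcrb. Gene density around a member sets how many other starts lie nearby, and this was not adjusted for.

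Several tissue isoforms with a weak promoter had stronger distal sites. Together the 8 tissue isoforms had 32 distal sites, 20 of them nearest to the isoform's own start, and their 7 ubiquitous partners had 14, of which 5 were nearest to their own. Ndufa4l2 held 12 of the 32 and Cox4i2 held 9, while Ndufa4, the partner of Ndufa4l2, had none. The median per gene was 2 for the tissue isoforms, for the ubiquitous complex IV subunits and for all coding genes. Of the Ndufa4l2 sites 9 were nearest to its own start.

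The strongest distal site of Ndufa4l2, at chr10:127512976-127513145 centred at −1906 bp, scored 122 and 113, while its promoter had only the peak of 45 in replicate 1. A second site at −5796 bp scored 108 and 101, and one in the gene's own exon at 1854 bp scored 98 and 84. The intergenic site at −1906 bp is printed because it was the strongest open region near this gene, on the plus strand of mm10, which is also the gene's strand, with no letters marked.
Ndufa4l2 site: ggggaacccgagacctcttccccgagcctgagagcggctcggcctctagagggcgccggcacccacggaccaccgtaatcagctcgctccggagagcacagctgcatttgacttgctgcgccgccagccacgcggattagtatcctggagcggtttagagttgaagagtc

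The muscle isoforms had fewer. Cox8b had 4 sites, all nearest to its own start, and the strongest, at −8284 bp, scored 92 and 84. Cox6a2 had 3, of which the one at −1984 bp, in an intron of Itgad, scored 74 and 69. Cox7a1 had 1, at −2624 bp, with 85 and 93. The sites of Cox8b and Cox6a2 scored above the gene's promoter peak wherever it had one, and that of Cox7a1 above it in replicate 2 and below it in replicate 1.

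Cox4i2 had its strongest site at −14702 bp (138 and 126), but this and 5 more upstream sites were nearest to Id1, a regulator of differentiation. Of the testis isoforms, Cox7b2 had 1 site (37 and 40), Cox8c 1 (73 and 56) and Cox6b2 1 (59 and 35).

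**Figure D5:**
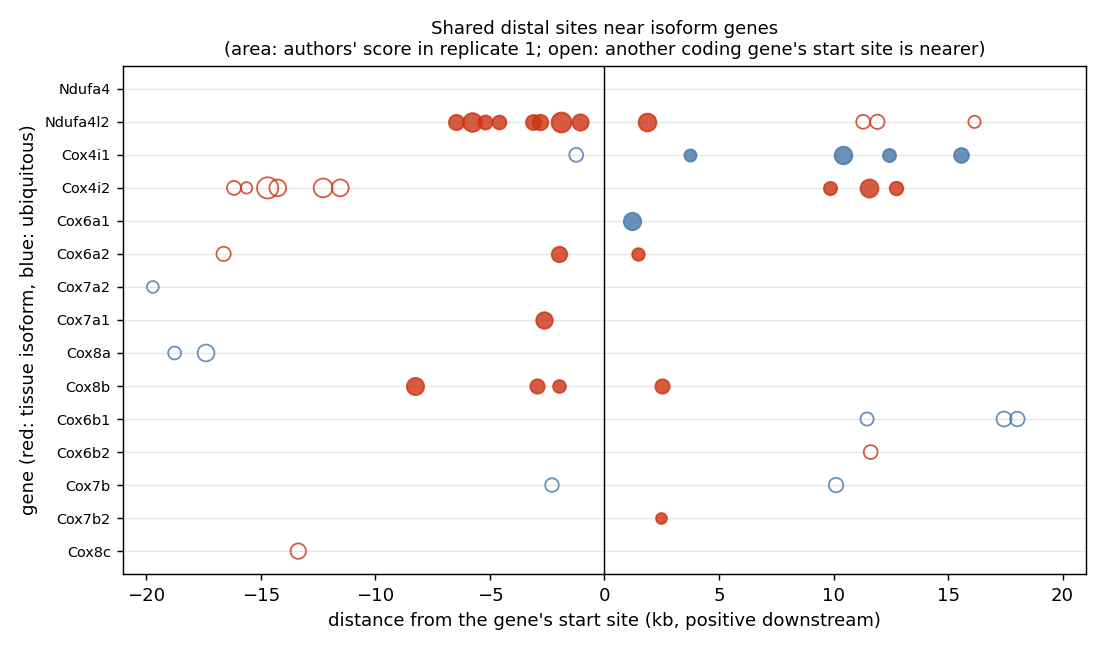
Shared distal sites within 20 kb of the start of each isoform gene, by distance in kb along the direction of the gene, with area showing the replicate 1 score and open circles marking sites nearer to another coding gene's start. Ndufa4l2 has a run of filled sites upstream, while Ndufa4 has none, and the strongest sites of Cox4i2 are open circles.

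Genes of the same pathway outside the symbol rule were similar. Cytochrome c (Cycs) scored 139 and 131, and cytochrome c1 (Cyc1) 123 and 116, while the testis form Cyct had no promoter peak. Of 31 further assembly genes 30 had a shared site, with medians of 132 and 125, and Sdhaf1, an assembly factor of complex II, had none. Over all coding genes 67.4% had a shared site, and among CpG-rich coding genes 97.2%, near the 30 of 31. All 12 regulators of respiratory genes also had one, with medians of 140 and 126. Among them were Nrf1 (141 and 126), Gabpa (140 and 124), Yy1 (145 and 137), Esrra, an estrogen-related receptor (146 and 137), and Tfam, which maintains mitochondrial DNA (131 and 125). Ppargc1a, a coactivator of mitochondrial genes in muscle and brown fat, was lower at 79 and 59. The Gabpa values are those of the peak also counted above for the member Atp5j.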

How the data were processed

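DNase-seq peaks and hotspots were deposited separately for 2 replicates in mm10 coordinates, per the labels. The sources used here name no aligner, caller, read depth or score normalization, and instruments are listed for replicate 1 only, so a sequencing batch and the replicate cannot be told apart. The authors' peak score (column 7) was used as deposited, with its percentile in its list. The deposited hotspot value is a −log10 q-value that ends at 100. After removing regions off the main chromosomes and repeated coordinates, 304233 and 217980 peaks remained.

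Peaks were joined to start sites of the basic GENCODE M21 annotation, and sequences read from GRCm38 (mm10), with Python 3.11.15, NumPy 2.4.6 and SciPy 1.17.1. The overlap minimum was 1 bp. The counting steps were tested on simulated data.

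The members, gene lists, isoform pairs and strings were chosen with earlier results of these data known. Genes named were those without a shared promoter site, the isoform pairs, the 3 highest and 3 lowest of each complex, core subunits, the 10 members with most distal sites and their neighbours. Other members were named, after their values were seen, where a string, a neighbour or the annotation concerned them, and a few items are not reported here. Alternatives were other windows, overlaps, score limits, hotspots, annotations and single replicates.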

Additional observations from a re-analysis of the deposited data

How the results depend on the processing

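The count of members with a promoter site was 86 to 91 of 94 under all alternatives (main 88). The share of all coding genes ran from 63.2% to 70.9% under the same alternatives (main 67.4%). The ubiquitous gene was higher in 7 of 8 pairs under all alternatives tried for pairs but hotspots, where ties at the ceiling left 5. The overlap minimum cannot change this count, and the use of a single replicate cannot lower it. The pairs were not counted under the comprehensive annotation. Leaving out a replicate gave 89 and 91 members (all coding genes, 68.7% and 70.9%), and 282 and 361 distal sites. The members' median score, averaged over replicates, exceeded that of all coding genes by 9.5. This difference was 8.5 with a window of 200 bp, 10.5 with 1000 bp, 12.5 with the peak nearest to a start site and 1.28 percentile points with ranks. The 242 distal sites became 110 within 10 kb, 685 within 50 kb, 132 when only the nearest coding start counted and 140 with peaks at or above their list's median. The comprehensive annotation, added after seeing the data, gave 88 members and 232 distal sites. No paired analysis was possible because the samples form only 1 group. Read depth is unknown, so a peak missing from a list may lie below its detection limit. No test supports any difference given here.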

Other observations

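Among 13 non-coding records whose names fit the same symbol rule, 12 were processed pseudogenes, copies of mRNA inserted elsewhere in the genome. Of these, Ndufs6b had a shared promoter site (61 and 56) and Uqcrh-ps1 a peak in replicate 1 only (42), and the other 10 had no peak. The remaining record, Ndufb1-ps, annotated as a non-coding RNA of a bidirectional promoter, had a shared site of 108 and 95.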
